A study of Mus musculus with 4 samples.

Results

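The account covers 7 mouse genes of the checkpoint and costimulation system in myeloid cells of the inflamed and healthy central nervous system: Lag3, Vsir, Cd274, Cd86, Havcr2, Sirpa and Cd47. They are 7 of the 41862 gene columns measured. The genes were selected on measured values of these same libraries, so their levels and differences are given as a description with no test. They were read in 4079 microglia-like, 347 monocyte-like and 124 border-associated macrophage-like barcodes, out of 7822 barcodes kept (at least 500 UMIs and at most 20% mitochondrial UMIs). A UMI is a molecular identifier that counts an RNA molecule once.

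Checkpoint and costimulatory proteins set how strongly a T cell responds to the cell that shows it antigen. PD-L1 (Cd274) binds PD-1 and restrains the T cell, whereas CD86 binds CD28 to costimulate it and CTLA-4 to restrain it. VISTA (Vsir) is a B7-related protein of myeloid and T cells with restraining roles, and LAG-3 (Lag3) and TIM-3 (Havcr2) are inhibitory receptors best known from T cells. LAG-3 binds MHC class II, and TIM-3 binds partners such as galectin-9. SIRPα (Sirpa) is a receptor of phagocytes that recruits the phosphatases SHP-1 and SHP-2 when it meets CD47, a broadly expressed surface protein that restrains engulfment. Microglia are the resident macrophages of brain and spinal cord, and monocytes enter from blood during inflammation.

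The series held 4 inDrop (version 3) single-cell libraries, 1 of each group: EAE TRAIL+, EAE TRAIL-, naive TRAIL+ and naive TRAIL-. EAE, a model of autoimmune inflammation of the central nervous system, was induced with MOG35-55 peptide in complete Freund's adjuvant and sampled at peak disease. The naive animals were healthy. All groups came from Aldh1l1CreERT2-TdTomato mice on a C57BL6 background, in which the Cre is driven by an astrocyte promoter and marks cells with TdTomato, and all cells were sorted as TdTomato+ and LAMP1+ before the split on the surface death ligand TRAIL. The design text names 3 mice per state; pooling of their cells per library: not given in the sources used here. With 1 library per group no comparison below has a replicate check, and every interval is an exact 95% interval that covers counting error only.

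The labels call the sorted cells astrocytes, and the markers went against that. Astrocyte-like barcodes numbered 8 in EAE TRAIL+, 3 in EAE TRAIL-, 140 in naive TRAIL+ and 34 in naive TRAIL-. Microglia-like barcodes numbered 1614 in EAE TRAIL+, 269 in EAE TRAIL-, 1885 in naive TRAIL+ and 311 in naive TRAIL-. They were 89.2%, 17.1%, 84.7% and 14.0% of the kept barcodes in that order of libraries. Most of the remaining TRAIL- barcodes were endothelial-like (490 in EAE and 1147 in naive) or pericyte-like (455 in EAE and 500 in naive). Monocyte-like barcodes numbered 110 in EAE TRAIL+ and 221 in EAE TRAIL-, but 6 in naive TRAIL+ and 10 in naive TRAIL-, so no naive monocyte level is compared. The median depth of microglia-like barcodes was 1888 UMIs in EAE TRAIL+, 1976 in EAE TRAIL-, 1555 in naive TRAIL+ and 1546 in naive TRAIL-. Between 68 and 114 barcode sequences were shared by any pair of libraries. All 15 microglia markers were detected in the microglia-like barcodes of EAE TRAIL+ and EAE TRAIL-, with a summed level of 33301 and 30509 CPM (UMIs scaled to a total of 1000000), beside 38662 CPM in naive TRAIL+ and 37191 CPM in naive TRAIL-.

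The genes lie at chr19:29367455-29388095 (+) for Cd274, chr16:36603869-36666081 (-) for Cd86, chr10:60346851-60372684 (+) for Vsir, chr6:124904361-124911705 (-) for Lag3, chr11:46454935-46481255 (+) for Havcr2, chr2:129592835-129632228 (+) for Sirpa and chr16:49800533-49915010 (+) for Cd47, in GRCm38 with GENCODE M21 annotation. Vsir sits inside Cdh23, which is read from the other strand and shares 0 exon bases with it. Cd274 shares 511 exon bases with the antisense gene AC119228.1, and the sources used here do not say whether reads were counted by strand. Sirpa has close relatives in the Sirpb genes, so its counts are uncertain where reads fit both. The promoters of Cd274 and Havcr2 are printed because Cd274 is the gene with the largest EAE ratio of the 7, and Havcr2 is a member that stayed near 1 in the same cells. Sequences are from RefSeq on GRCm38.p6, 250 bases before to 50 after the start, of which 4 of the 7 genes have an entry (Cd274, Havcr2, Vsir and Cd47). The Cd274 promoter spans chr19:29367188-29367487 (+), and its capitals mark a match to the interferon regulatory factor core AANNGAAA on the reverse strand.
Cd274: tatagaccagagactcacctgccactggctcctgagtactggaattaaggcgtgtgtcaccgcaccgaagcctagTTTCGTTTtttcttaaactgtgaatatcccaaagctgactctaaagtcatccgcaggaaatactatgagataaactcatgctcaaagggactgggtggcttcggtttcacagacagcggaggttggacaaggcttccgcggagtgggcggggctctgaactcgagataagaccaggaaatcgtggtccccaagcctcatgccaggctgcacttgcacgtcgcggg
The Havcr2 promoter spans chr11:46454681-46454980 (+), and its capitals mark a match to the ETS-type letters GAGGAAGT.
Havcr2: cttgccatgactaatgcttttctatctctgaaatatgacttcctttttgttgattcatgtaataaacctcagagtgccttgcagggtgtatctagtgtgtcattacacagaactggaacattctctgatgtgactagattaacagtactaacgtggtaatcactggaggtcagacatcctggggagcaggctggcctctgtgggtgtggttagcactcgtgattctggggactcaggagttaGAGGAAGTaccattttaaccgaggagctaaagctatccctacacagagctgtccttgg

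Motifs were searched on both strands of 32851 mouse promoters of the same length. A longer interferon motif, with GAAA, NN and GAAA in a row, was in 3.44% of them and in none of the 4 available here. Its shorter core AANNGAAA, searched after the longer motif had no match and able to overlap it, was in 23.9% of promoters. The Cd274 promoter held 1 match, at position -175 from the start. The gamma-activated site letters TTCNNNGAA were in 8.30% of promoters and in none of the 4. GAGGAAGT was in 3.20% of promoters and matched Havcr2 at position -8. Vsir and Cd47 held none of these motifs in this window, and a match in letters does not show binding.

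Cd274 was the checkpoint ligand that differed most between states in microglia-like cells. Its level was 82.4 CPM (interval 72.8 to 92.9; 268 UMIs) in EAE TRAIL+ and 82.6 CPM (60.5 to 110; 46 UMIs) in EAE TRAIL-, against 27.0 CPM (21.6 to 33.5; 84 UMIs) in naive TRAIL+ and 26.05 CPM (13.9 to 44.5; 13 UMIs) in naive TRAIL-. Both EAE libraries were high and both naive libraries low, and no EAE interval overlapped a naive one. The share of barcodes with a Cd274 UMI was 10.8% in EAE TRAIL+ and 10.4% in EAE TRAIL- cells, against 3.82% in naive TRAIL+ and 3.54% in naive TRAIL- cells. In pericyte-like cells of the TRAIL- libraries that share was 1.76% (10 UMIs) in EAE, and naive cells had 0 UMIs in 500 barcodes (0 to 8.76 CPM). After each barcode was thinned to 500 UMIs the Cd274 shares were 3.72% and 2.60% in the EAE libraries, against 1.27% and 1.29% in the naive ones (TRAIL+ named before TRAIL- in each pair). The EAE over naive ratio of Cd274 was 3.05 (2.38 to 3.94) in TRAIL+ cells and 3.17 (1.68 to 6.4) in TRAIL- cells.

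Monocyte transcripts were also counted in these barcodes: the summed level of the monocyte marker list in microglia-like cells was 553 CPM in EAE TRAIL+, 690 CPM in EAE TRAIL-, 428 CPM in naive TRAIL+ and 220 CPM in naive TRAIL-. In monocyte-like cells the same markers summed to 15906 CPM in EAE TRAIL+ and 22973 CPM in EAE TRAIL-. A single gene, Lyz2, made up most of the microglia-like sum in every library. Its level there was 481, 508, 405 and 208 CPM, in the order of libraries given above. For monocyte-like cells of EAE it was 10075 (TRAIL+) and 9858 CPM (TRAIL-). The origin of the Lyz2 UMIs in microglia-like barcodes was not tested. Of the 15 markers on that list, 13 were detected in microglia-like cells of each EAE library, and Gm9733 and Cd177 were at 0. The part of these transcripts in the Cd274 level was not tested.

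Cd86, the CD28 and CTLA-4 ligand, was 172.8 CPM (159 to 188; 562 UMIs) in EAE TRAIL+ and 170.6 CPM (138 to 209; 95 UMIs) in EAE TRAIL-, against 141.3 CPM (128 to 155; 439 UMIs) in naive TRAIL+ and 108.2 CPM (81.3 to 141; 54 UMIs) in naive TRAIL-. The EAE libraries were the higher ones, by a smaller margin than for Cd274, and the intervals of the TRAIL+ pair did not overlap while those of the TRAIL- pair did. The Cd86 ratio was 1.22 (1.08 to 1.39) in TRAIL+ and 1.58 (1.12 to 2.25) in TRAIL- cells. Cd80, the other B7 ligand of CD28, was lower in EAE, at 0.744 times naive (0.541 to 1.02) in TRAIL+ cells, with 74 UMIs in EAE and 95 in naive, and its interval included 1.

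Vsir and Sirpa, the most abundant of the 7, were lower in EAE. Vsir was 1179 CPM (1142 to 1217; 3836 UMIs) in EAE TRAIL+ and 819 CPM (745 to 898; 456 UMIs) in EAE TRAIL-, against 1454 CPM (1412 to 1497; 4518 UMIs) in naive TRAIL+ and 1411 CPM (1308 to 1519; 704 UMIs) in naive TRAIL-. The naive libraries overlapped each other, and EAE TRAIL- lay apart as the lowest. Sirpa was 1549 CPM (1506 to 1592; 5039 UMIs) in EAE TRAIL+ and 1403 CPM (1306 to 1505; 781 UMIs) in EAE TRAIL-, against 2113 CPM (2063 to 2165; 6567 UMIs) in naive TRAIL+ and 2122 CPM (1996 to 2254; 1059 UMIs) in naive TRAIL-. For both genes every EAE interval lay under both naive intervals. The Vsir ratio was 0.811 (0.777 to 0.847) in TRAIL+ and 0.581 (0.515 to 0.654) in TRAIL- cells. The Sirpa ratio was 0.733 (0.706 to 0.760) in TRAIL+ and 0.661 (0.602 to 0.726) in TRAIL- cells.

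Thinning to equal depth kept that order. The share of thinned barcodes with a Sirpa UMI was 48.8% in EAE TRAIL+ and 45.4% in EAE TRAIL- cells, against 60.5% in naive TRAIL+ and 61.1% in naive TRAIL- cells. For Vsir it was 40.9% and 27.9% in the EAE libraries, against 46.4% and 46.3% in the naive ones.

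For the receptors Lag3 and Havcr2 and the ligand Cd47 the EAE and naive intervals of the TRAIL- pair overlapped. Lag3 was 200.1 CPM (185 to 216; 651 UMIs) in EAE TRAIL+ and 140.1 CPM (111 to 175; 78 UMIs) in EAE TRAIL-, against 173.1 CPM (159 to 188; 538 UMIs) in naive TRAIL+ and 102.2 CPM (76.1 to 134; 51 UMIs) in naive TRAIL-. Within each state the TRAIL+ library was the higher one for Lag3, with no overlap of the intervals. Havcr2 was 264.7 CPM (861 UMIs) in EAE TRAIL+ and 224.5 CPM (125 UMIs) in EAE TRAIL-, against 244.9 CPM (761 UMIs) in naive TRAIL+ and 234.4 CPM (117 UMIs) in naive TRAIL-, and all 4 intervals overlapped. Cd47 was 241.9 CPM (787 UMIs) in EAE TRAIL+ and 229.9 CPM (128 UMIs) in EAE TRAIL-, against 195.3 CPM (607 UMIs) in naive TRAIL+ and 220.4 CPM (110 UMIs) in naive TRAIL-.

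In TRAIL+ cells the EAE over naive ratio was 1.16 (1.03 to 1.30) for Lag3, 1.08 (0.979 to 1.19) for Havcr2 and 1.24 (1.11 to 1.38) for Cd47. In TRAIL- cells it was 1.37 (0.951 to 1.99) for Lag3, 0.958 (0.738 to 1.24) for Havcr2 and 1.04 (0.802 to 1.36) for Cd47, and each of these intervals included 1.

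**Figure D1:**
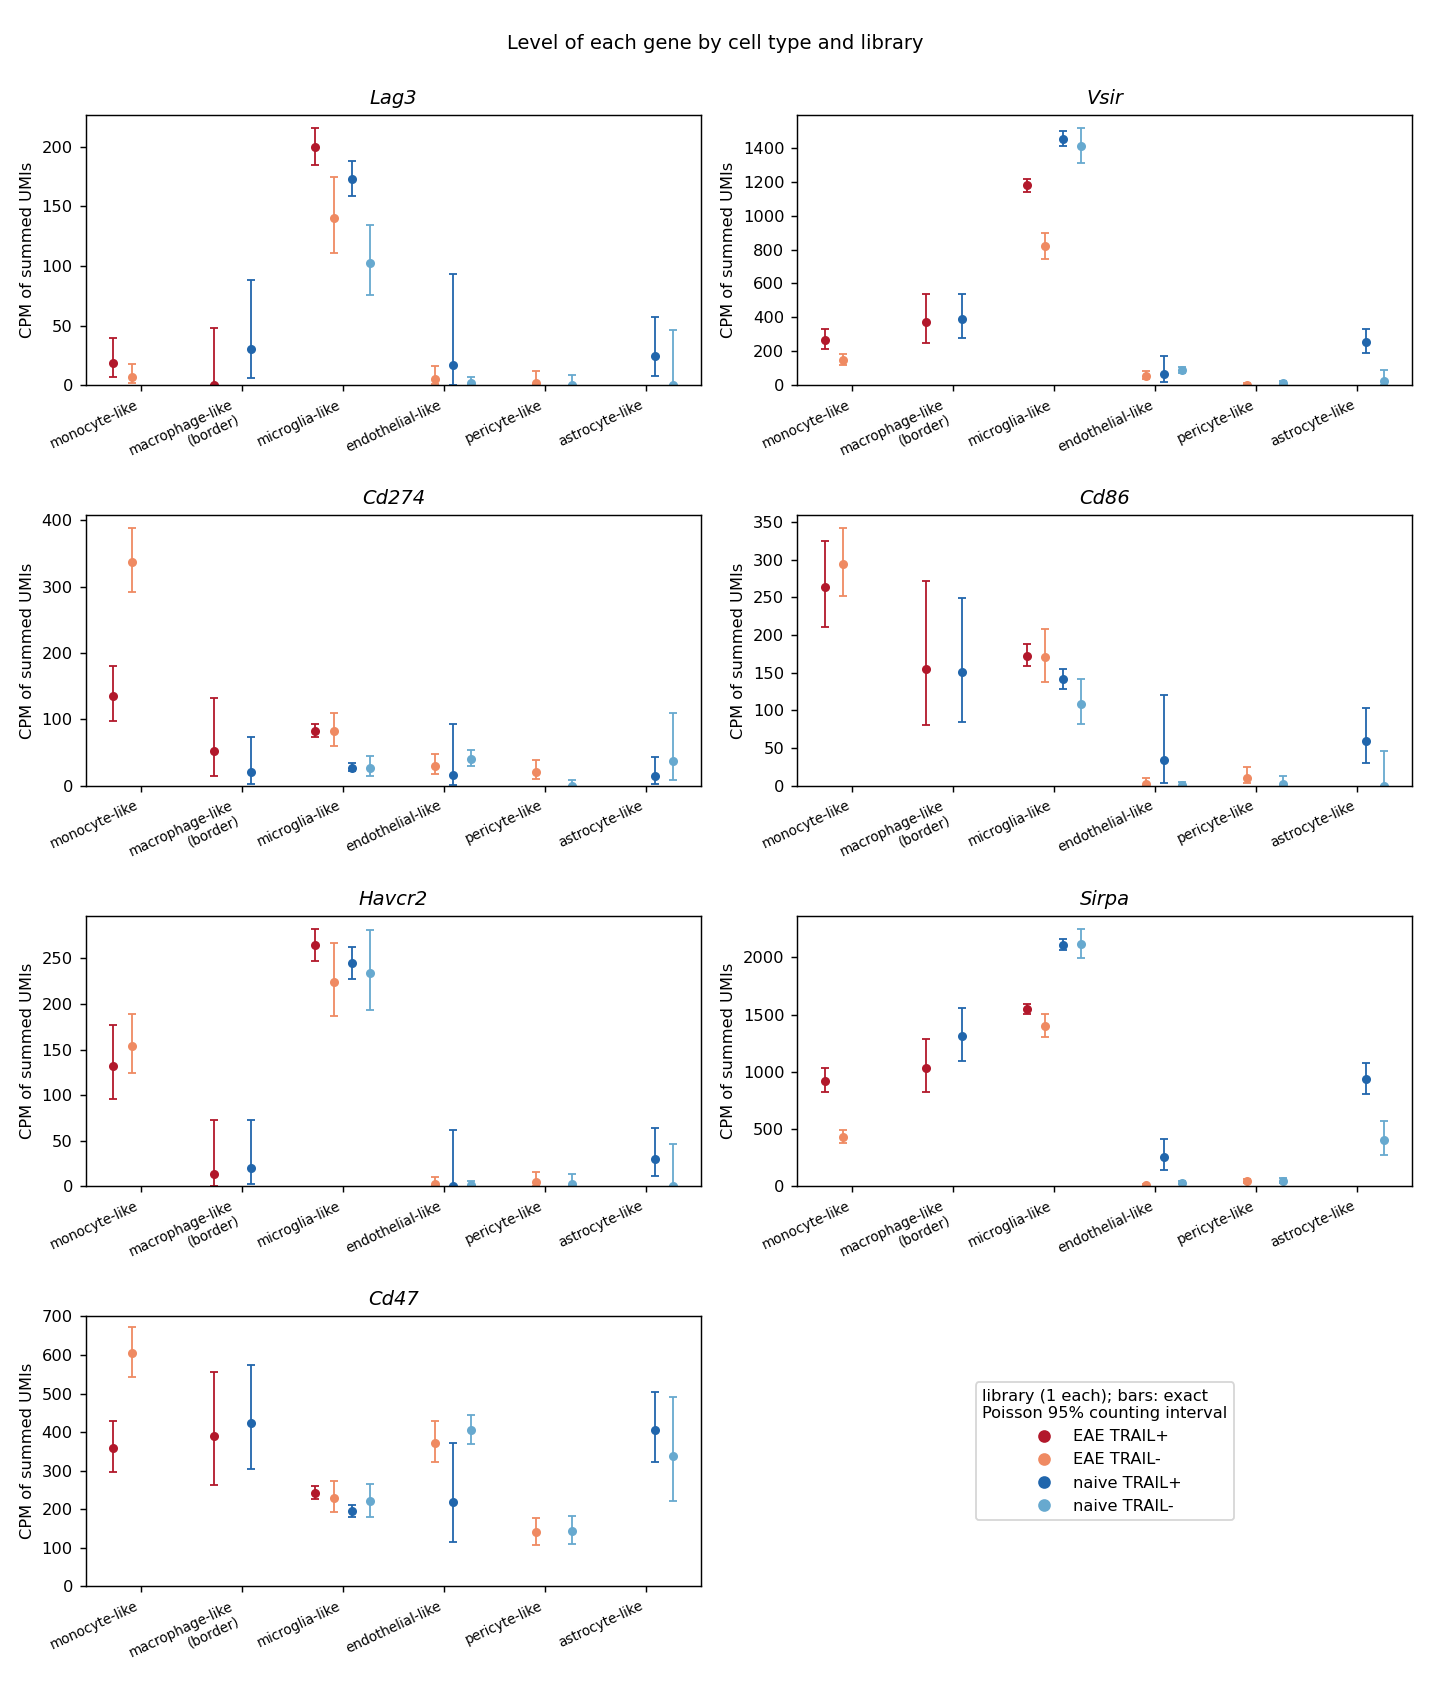
Level of each of the 7 genes (CPM of summed UMIs, linear axis from 0) by cell type, with 1 point per library and bars for the exact 95% Poisson interval of the UMI count. Cd274 sat at 82.4 and 82.6 CPM in EAE microglia-like cells against 27.0 and 26.05 CPM in naive ones, and Lag3 was at its highest in microglia-like cells.

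Read against all genes, Cd274 was the only one of the 7 at least 2-fold higher in EAE, in TRAIL+ and in TRAIL- cells, and none was at least 2-fold lower. All 7 had a mean of at least 10 CPM in these comparisons, the minimum for a gene to be measured. In TRAIL+ cells 8568 genes were measured, and 3.8% of them reached 2-fold higher and 0.84% reached 2-fold lower levels in EAE. In TRAIL- cells 8639 genes were measured, of which 13.4% were higher and 12.1% lower by that size, so a 2-fold ratio was far more common in the library with fewer cells. The 1 of 7 members higher in TRAIL- cells was thus near the share of all genes. The median log2 ratio of the 7 genes was 0.21 in TRAIL+ and 0.06 in TRAIL- cells, beside 0.03 and -0.01 over all measured genes. The Cd274 ratio stood at percentile 98.9 of the measured genes in TRAIL+ cells. Scaling by TMM, a trimmed mean of ratios, in place of total UMIs shifted the median gene by -0.15 in TRAIL+ cells and gave 2.60% higher and 1.81% lower. Median-of-ratios scaling shifted it by 0.16 in TRAIL- cells and gave 18.2% higher and 9.60% lower. Havcr2 in both sorts and Cd47 in TRAIL- cells changed direction under at least 1 alternative, and Cd274 in TRAIL- cells was under 2-fold after thinning (7 UMIs in EAE and 5 in naive, log2 ratio 0.69).

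**Figure D2:**
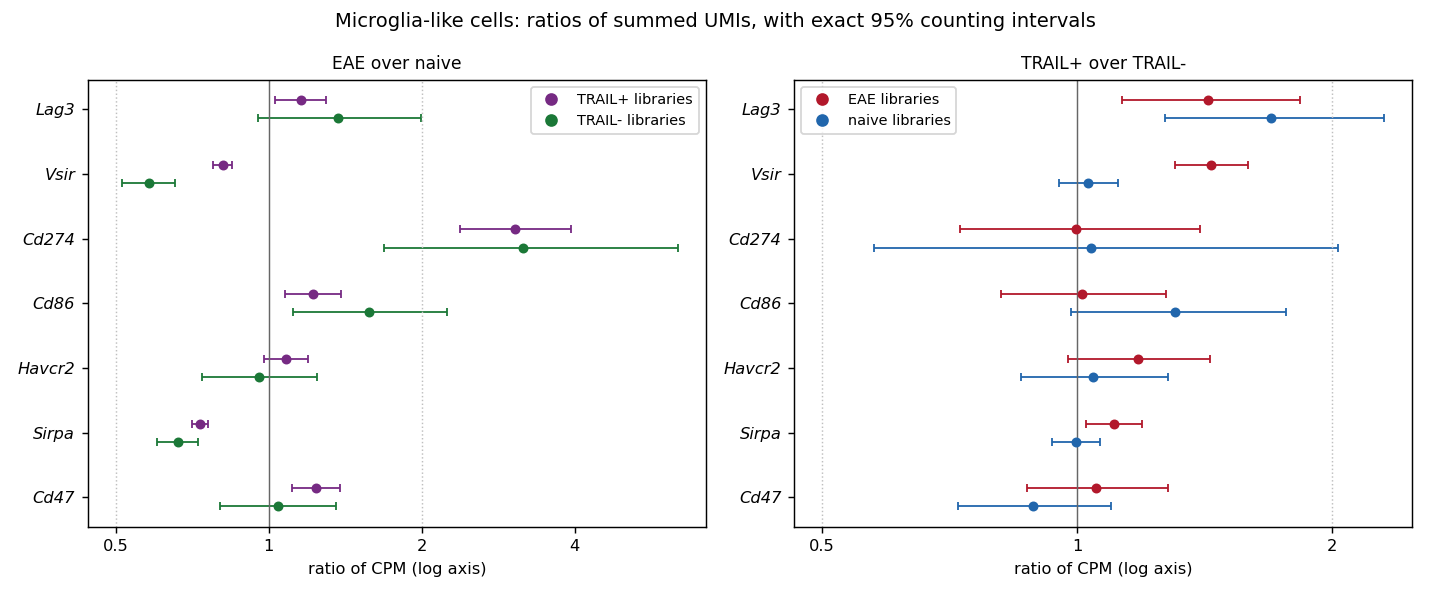
Ratio of each gene's level in microglia-like cells (log axis, bars are exact 95% intervals), for EAE over naive and for TRAIL+ over TRAIL-, with dotted lines at 2-fold either way. Cd274 lay above the 2-fold line for EAE in TRAIL+ (3.05) and TRAIL- cells (3.17), and Vsir and Sirpa lay below 1 for EAE over naive.

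Cd274 was not spread evenly over EAE microglia-like cells. Clustering was done without the 7 genes. It gave a cluster led by C4b, Hcar2, Cd74 and H2-Q7, complement, receptor and antigen-presentation genes. This cluster was named microglia-like only in a later round, from which the microglia-like clusters already named were left out. It then had 4 of the 15 microglia markers among its 10 leading genes. Its microglia-like barcodes numbered 652 in EAE TRAIL+, 157 in EAE TRAIL-, 15 in naive TRAIL+ and 1 in naive TRAIL-. Within EAE TRAIL+ cells Cd274 was 139.5 CPM in this cluster and 40.1 CPM in the other microglia-like clusters, a ratio of 3.48 (2.65 to 4.61). Within EAE TRAIL- cells Cd274 was 106 CPM in the cluster and 46.0 CPM in the others, a ratio of 2.30 (1.12 to 5.20). In the other clusters alone, the Cd274 ratio of EAE over naive was 1.49 (1.08 to 2.06) in TRAIL+ and 1.76 (0.692 to 4.36) in TRAIL- cells. The C4b-led cluster thus held 193 of the 268 Cd274 UMIs of EAE TRAIL+ and 36 of the 46 of EAE TRAIL-, and 1 Cd274 UMI of naive TRAIL+.

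Sirpa and Vsir were lower in EAE outside that cluster too. In the other clusters the ratio of EAE over naive was 0.768 (0.736 to 0.802) for Sirpa and 0.879 (0.836 to 0.924) for Vsir in TRAIL+ cells, and 0.696 (0.612 to 0.789) for Sirpa and 0.622 (0.527 to 0.731) for Vsir in TRAIL- cells. Havcr2 was lower in the C4b-led cluster than in the others in EAE TRAIL- cells, at 0.536 (0.370 to 0.774), and its ratio in EAE TRAIL+ cells was 0.913 (0.794 to 1.05). Havcr2 UMIs often shared a barcode, as given below, and the intervals do not cover that. Cd47 was higher in the C4b-led cluster in EAE TRAIL+ cells, at 1.37 (1.19 to 1.58), with 1.10 (0.760 to 1.61) in EAE TRAIL- cells.

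A finer clustering separated, within EAE microglia-like cells, a group led by C4b and a group led by Cxcl10, Gbp4, Iigp1 and Ifit3, which are interferon-induced genes. Both were named in the later round, the Cxcl10-led group with 0 microglia markers among its 10 leading genes and 4 among its 50. In EAE TRAIL+ Cd274 was 151 CPM (114 to 196; 56 UMIs, 131 barcodes) in the Cxcl10-led group and 135 CPM (114 to 160; 140 UMIs, 473 barcodes) in the C4b-led group. It was 94.1 CPM (54.8 to 151; 17 UMIs) in a Tlr7-led group, and 34.1, 39.4 and 29.3 CPM in the Fcrls-led, Gpr34-led and P2ry13-led groups. The first 2 groups were the high ones for Cd274, and the last 3, led by genes of resting microglia, the low ones. The Cxcl10-led group was also the low one for Sirpa and Vsir. Against the C4b-led group of EAE TRAIL+, its ratio was 0.715 (0.64 to 0.798) for Sirpa, 0.682 (0.596 to 0.779) for Vsir and 0.561 (0.414 to 0.748) for Havcr2, and 1.11 (0.802 to 1.53) for Cd274. In EAE TRAIL- the Cxcl10-led group had 28 barcodes, with a ratio of 0.651 (0.501 to 0.835) for Sirpa and 0.764 (0.556 to 1.03) for Vsir.

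**Figure D3:**
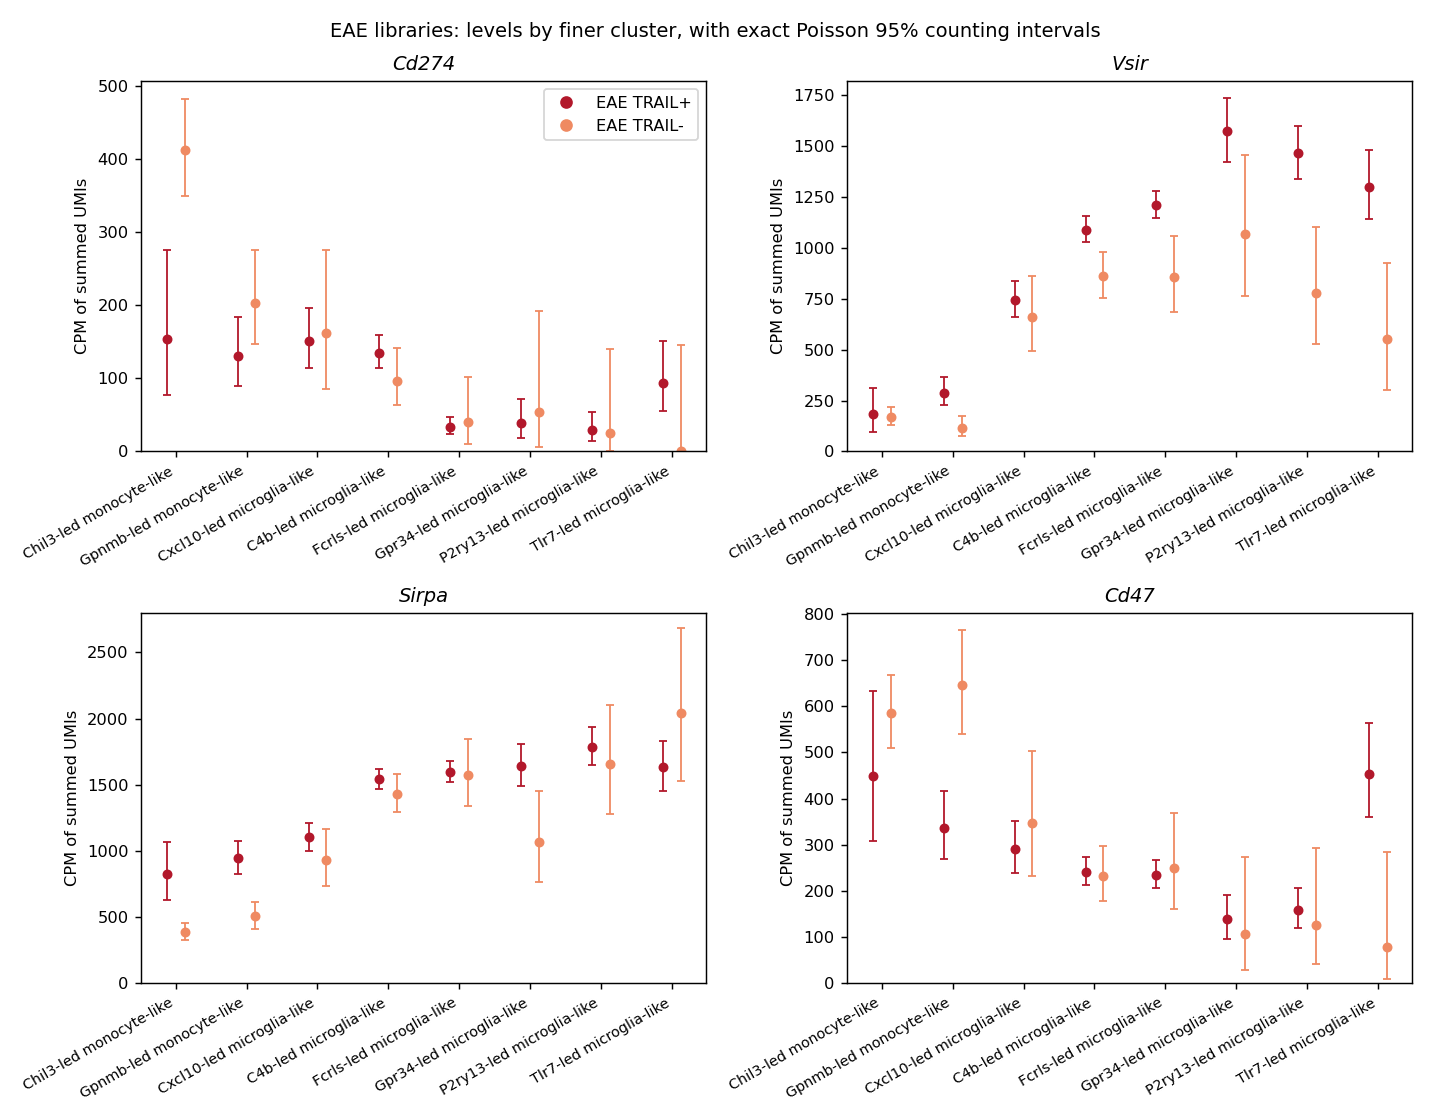
Levels of Cd274, Vsir, Sirpa and Cd47 (CPM of summed UMIs, linear axis from 0) in the finer clusters of EAE microglia-like and monocyte-like cells, named by a leading gene, with exact 95% intervals. Cd274 was 412 CPM in Chil3-led monocyte-like cells of EAE TRAIL-, and 151 and 135 CPM in the Cxcl10-led and C4b-led microglia-like cells of EAE TRAIL+.

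The sort on TRAIL split the libraries by cell type. When whole libraries were summed, Lag3, Vsir, Sirpa, Havcr2 and Cd86 were higher in TRAIL+ in both states, and Cd274 and Cd47 were not. Over all kept barcodes the TRAIL+ over TRAIL- ratio in EAE was 4.68 (3.77 to 5.88) for Lag3, 4.46 (4.09 to 4.87) for Vsir, 3.30 (3.09 to 3.52) for Sirpa, 2.72 (2.34 to 3.16) for Havcr2, 1.59 (1.38 to 1.84) for Cd86, 0.727 (0.618 to 0.854) for Cd274 and 0.769 (0.700 to 0.845) for Cd47. In naive libraries it was 7.74 (5.83 to 10.5) for Lag3, 4.15 (3.85 to 4.47) for Vsir, 4.34 (4.08 to 4.61) for Sirpa, 4.52 (3.74 to 5.49) for Havcr2, 4.86 (3.79 to 6.30) for Cd86, 0.997 (0.718 to 1.39) for Cd274 and 0.741 (0.671 to 0.818) for Cd47. At least 2-fold higher were 4 members in EAE, beside 8.83% of 9892 measured genes, and 5 in naive libraries, beside 11.1% of 10000. At least 2-fold lower were 0 members in either state, beside 20.1% of genes in EAE and 24.7% in naive libraries. In such sums, more cells of a type and more RNA per cell cannot be told apart.

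Within microglia-like cells none of the 7 ratios reached 2-fold in either direction, and those of the members other than Cd274 were closer to 1 than over all kept barcodes in both states. Lag3 was higher in TRAIL+ cells in both states, at 1.43 (1.13 to 1.83) in EAE and 1.69 (1.27 to 2.30) in naive cells. Vsir was 1.44 (1.31 to 1.59) in EAE, where TRAIL- cells were the low library, and 1.03 (0.952 to 1.12) in naive cells. Sirpa was 1.10 (1.02 to 1.19) in EAE and 0.996 (0.933 to 1.06) in naive cells. Cd274 was 0.997 (0.727 to 1.39) in EAE and 1.04 (0.575 to 2.03) in naive cells, and a difference inside those intervals was not detectable at this depth. Havcr2 was 1.18 (0.976 to 1.43) in EAE and 1.04 (0.859 to 1.28) in naive cells. Cd86 was 1.01 (0.813 to 1.27) in EAE and 1.31 (0.983 to 1.77) in naive cells, and Cd47 was 1.05 (0.872 to 1.28) in EAE and 0.886 (0.722 to 1.10) in naive cells. Of 8793 genes measured in EAE, 5.81% were at least 2-fold higher and 4.89% lower in TRAIL+ cells. Of 8317 in naive cells, 4.2% were higher and 5.16% lower. TMM scaling gave 8.86% higher and 3.13% lower in EAE, with the median gene shifted by 0.17, and 7.06% higher and 2.71% lower in naive cells, with a shift of 0.23. Cd274, Cd86, Cd47 and Havcr2 in EAE, and Cd274, Cd47 and Sirpa in naive cells, changed direction under at least 1 alternative. The EAE libraries differed in cluster mix. The C4b-led cluster held 652 of 1614 microglia-like barcodes in EAE TRAIL+ and 157 of 269 in EAE TRAIL-. Inside that cluster the median log2 ratio of the 7 genes, EAE TRAIL+ over EAE TRAIL-, was 0.40. In the other microglia-like clusters it was -0.05, beside all-gene medians of -0.03 inside and -0.02 outside the cluster. The part of cluster mix in the EAE ratios above was not tested.

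Where a gene's UMIs came from depended on the library. Of all Cd274 UMIs, 83.5% in EAE TRAIL+ and 93.3% in naive TRAIL+ were in microglia-like barcodes. In EAE TRAIL- 66.6% of Cd274 UMIs were in monocyte-like and 15.7% in microglia-like barcodes, and in naive TRAIL- 65.7% were in endothelial-like barcodes. Lag3 had 98.0% of its UMIs in microglia-like barcodes of EAE TRAIL+, 83% of EAE TRAIL-, 97.3% of naive TRAIL+ and 96.2% of naive TRAIL-. That was the highest share of the 7 in each library but naive TRAIL+, where Havcr2 had 97.7%.

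Monocyte-like cells of EAE had a different set of these genes from microglia-like cells of the same library: more Cd274, Cd86 and Cd47, and less Lag3, Vsir, Havcr2 and Sirpa. Monocyte- and macrophage-like cells are pooled here (149 barcodes in EAE TRAIL+ and 225 in EAE TRAIL-), and the ratio is theirs over microglia-like cells of the same EAE library. For Cd274 it was 1.44 (1.04 to 1.97) in TRAIL+ and 4.02 (2.90 to 5.66) in TRAIL- cells. For Cd47 it was 1.51 (1.25 to 1.80) in TRAIL+ and 2.61 (2.13 to 3.22) in TRAIL- cells. For Cd86 it was 1.41 (1.12 to 1.74) in TRAIL+ and 1.71 (1.32 to 2.22) in TRAIL- cells. These 3 were higher in both libraries, though Cd274 in EAE TRAIL+ turned lower after thinning, where 5 UMIs stood against 70.

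The other members were lower in both. For Vsir the ratio was 0.244 (0.201 to 0.293) in TRAIL+ and 0.186 (0.147 to 0.234) in TRAIL- cells. For Sirpa it was 0.610 (0.548 to 0.677) in TRAIL+ and 0.327 (0.284 to 0.376) in TRAIL- cells. For Havcr2 it was 0.412 (0.297 to 0.558) in TRAIL+ and 0.686 (0.518 to 0.906) in TRAIL- cells. Lag3 stood furthest below 1, at 0.0743 (0.0272 to 0.163; 6 UMIs) in EAE TRAIL+ and 0.0604 (0.0191 to 0.147; 5 UMIs) in EAE TRAIL-. In EAE TRAIL-, where 8661 genes were measured, 2 members were at least 2-fold higher (Cd274 and Cd47) beside 16.5% of genes, and 3 were lower (Lag3, Vsir and Sirpa) beside 23.3% of genes. In EAE TRAIL+, with 8755 genes, 0 members were higher beside 13.8% of genes, and 3 were lower (Lag3, Vsir and Havcr2) beside 18.8% of genes.

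Microglia markers were also counted in monocyte-like barcodes. In monocyte-like cells of EAE TRAIL+, Tmem119 was at 6.84%, P2ry12 at 9.23%, Siglech at 7.23% and Fcrls at 12.6% of their level in microglia-like cells, and in EAE TRAIL- they were at 1.24%, 2.98%, 4.86% and 3.11%. Sall1 was at 1.11% (1 UMI) in EAE TRAIL+ and at 0 in EAE TRAIL-. Lag3 stood at 9.19% (6 UMIs) in EAE TRAIL+, among the values of these markers, and at 4.94% (4 UMIs) in EAE TRAIL-, just above the highest of them. The part of microglia transcripts in the Lag3 level was not tested. Vsir, at 22.6% in EAE TRAIL+ and 18.4% in EAE TRAIL-, Havcr2, at 49.8% and 68.6%, and Sirpa, at 59.5% and 30.6%, lay above each of the markers named here in both libraries. The summed level of all 15 microglia markers in monocyte-like cells came to 7847 CPM in EAE TRAIL+ and to 2560 CPM in EAE TRAIL-. In microglia-like cells it was 33301 and 30509 CPM. As a share of that level, the sum lay just above Vsir in EAE TRAIL+ and under it in EAE TRAIL-.

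**Figure D4:**
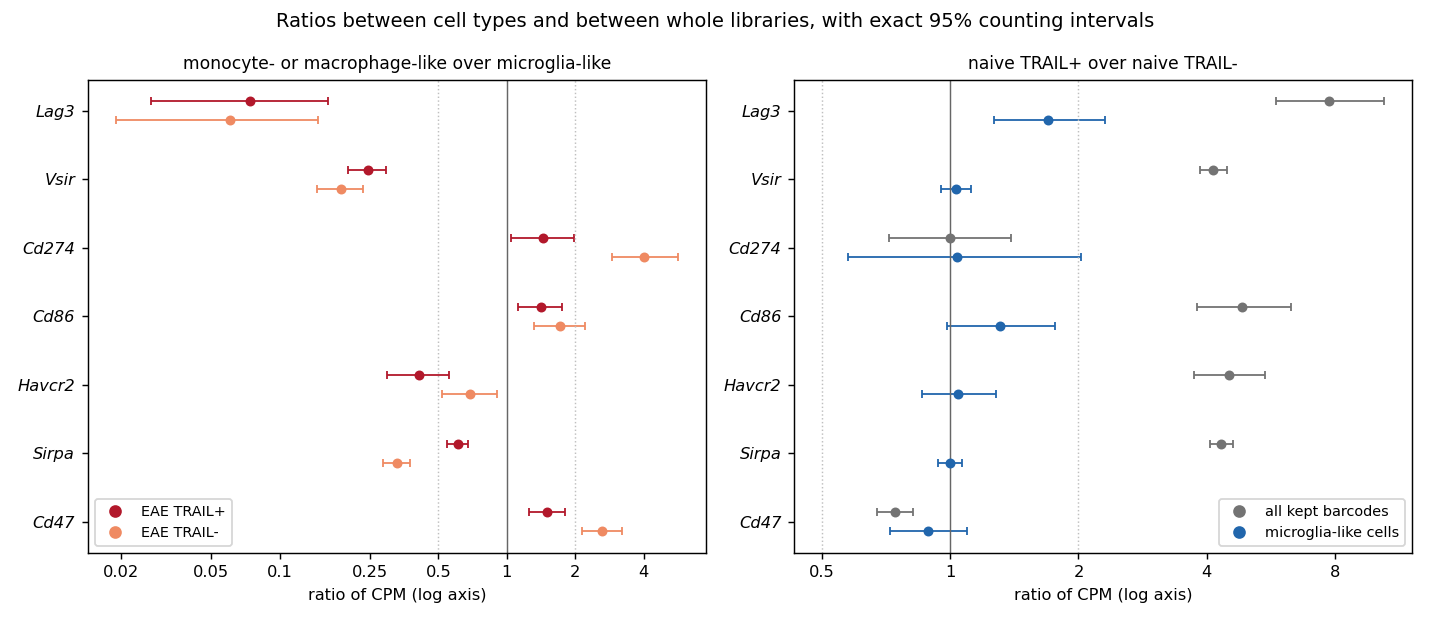
Ratio of each gene's level in monocyte- and macrophage-like cells over microglia-like cells of the same EAE library (left), and in naive TRAIL+ over naive TRAIL- for all kept barcodes and for microglia-like cells (right), on log axes with exact 95% intervals and dotted lines at 2-fold. In the left panel Cd274, Cd86 and Cd47 lay above 1 and Lag3, Vsir, Havcr2 and Sirpa below 1 in both libraries, with Cd274 at 1.44 in TRAIL+ and 4.02 in TRAIL- cells.

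The monocyte-like cells of EAE TRAIL+ and EAE TRAIL- also differed from each other. Cd274 was 134.8 CPM (98.0 to 181; 44 UMIs in 20 of 110 barcodes) in EAE TRAIL+ against 337 CPM (292 to 388; 195 UMIs in 69 of 221 barcodes) in EAE TRAIL-. Sirpa was 922 CPM (821 to 1033; 301 UMIs) in EAE TRAIL+ against 429 CPM (377 to 486; 248 UMIs) in EAE TRAIL-. Cd47 was 358.5 CPM (296 to 430; 117 UMIs) in EAE TRAIL+ against 606 CPM (544 to 673; 350 UMIs) in EAE TRAIL-. The intervals of the 2 libraries did not overlap for any of these 3 genes, and the share of all genes without overlap was not counted. At least 2-fold higher in EAE TRAIL+ were 2 members (Lag3 and Sirpa), beside 14.8% of 8064 measured genes. At least 2-fold lower was 1 member (Cd274), beside 11.6% of genes. Lag3 rested on 6 UMIs in EAE TRAIL+ (18.4 CPM) and 4 in EAE TRAIL- (6.92 CPM), with overlapping intervals. The TRAIL+ over TRAIL- ratio was 0.4 (0.281 to 0.557) for Cd274, 2.15 (1.81 to 2.55) for Sirpa, 0.592 (0.476 to 0.732) for Cd47 and 1.77 (1.30 to 2.41) for Vsir, and the intervals of Cd86, at 0.896 (0.683 to 1.17), and Havcr2, at 0.855 (0.580 to 1.24), included 1. The microglia marker sum given above was also higher in the monocyte-like cells of EAE TRAIL+, and its part in the Sirpa and Vsir ratios was not tested.

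Different finer clusters made up these monocyte-like cells. A group led by Gpnmb held 87 barcodes in EAE TRAIL+ and 83 in EAE TRAIL-, and a group led by Chil3 held 22 in EAE TRAIL+ and 137 in EAE TRAIL-. In EAE TRAIL- Cd274 was 412 CPM (349 to 483; 153 UMIs in 51 barcodes) in the Chil3-led and 204 CPM (147 to 275; 42 UMIs) in the Gpnmb-led group, a ratio of 2.02 (1.43 to 2.92). It was the only 1 of 6 measured members at least 2-fold higher there, beside 15.4% of 7941 genes. In EAE TRAIL+ 0 of 7 members, and so not Cd274, were that much higher in the Chil3-led group, beside 21.3% of 7844 genes. Within the Gpnmb-led group the EAE TRAIL+ over EAE TRAIL- ratio was 0.642 (0.394 to 1.04) for Cd274, 1.87 (1.48 to 2.38) for Sirpa, 2.49 (1.55 to 4.12) for Vsir and 0.522 (0.393 to 0.691) for Cd47. Within the Chil3-led group it was 0.374 (0.183 to 0.689) for Cd274 and 2.15 (1.56 to 2.93) for Sirpa. Sirpa was thus higher and Cd274 lower in EAE TRAIL+ in both groups, with an interval that included 1 for Cd274 in the Gpnmb-led one.

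Border-associated macrophage-like cells, which line vessels and meninges, were most numerous in naive TRAIL+ (71 barcodes, against 39 in EAE TRAIL+). In naive TRAIL+ their level over that of microglia-like cells was 0.0824 (0.00996 to 0.299; 2 UMIs) for Havcr2, 0.271 (0.192 to 0.370) for Vsir, 0.621 (0.518 to 0.738) for Sirpa, 1.07 (0.594 to 1.79) for Cd86 and 2.17 (1.55 to 2.97) for Cd47. Lag3 was 0.175 (0.0359 to 0.514; 3 UMIs). Of the microglia markers, P2ry12 was at 11.5%, Sall1 at 11.2%, Tmem119 at 9.14%, Siglech at 6.26% and Fcrls at 79.1% of the microglia-like level there. Havcr2 lay among the lower 4, and the Lag3 value lay above them with an interval that included all 4. In these cells of EAE TRAIL+ Lag3 was at 0 UMIs (0 to 47.8 CPM). There P2ry12 was at 8.48%, Siglech at 7.64%, Tmem119 at 6.43%, Fcrls at 71.9% and Sall1 at 0. The 2 states drew these cells from different clusters. Of the EAE TRAIL+ barcodes 22 were in a cluster led by H2-Eb1, H2-Aa, Mrc1 and Mgl2, with Ccr2 among its leading genes, and 17 in one led by Pf4, Cbr2, Mrc1 and Lyve1, against 13 and 58 of the naive TRAIL+ barcodes. The finer clustering left its H2-Eb1-led cluster unnamed. Over both clusters the EAE over naive ratio was 0.790 (0.591 to 1.05) for Sirpa, 0.955 (0.570 to 1.58) for Vsir and 2.57 (0.368 to 28.4; 4 UMIs against 2) for Cd274, and each interval included 1.

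Lag3, Cd86 and Havcr2 were scarce in endothelial-like cells of the TRAIL- libraries. There Lag3 stood at 5.54 CPM in EAE TRAIL- cells and 1.82 CPM in naive TRAIL- cells. Cd86 and Havcr2 were each at 1.85 CPM in EAE TRAIL- cells and 0.912 CPM in naive TRAIL- cells. The share of endothelial-like barcodes with a Havcr2 UMI was 0.204% in EAE TRAIL- and 0.0872% in naive TRAIL-, at a median depth of 1040 and 894 UMIs, against 18.2% and 15.8% of microglia-like barcodes. In naive TRAIL+, which held 55 endothelial-like barcodes, Cd86 was 33.5 CPM (2 UMIs), Lag3 16.7 CPM (1 UMI) and Havcr2 at 0 UMIs. Vsir was detected in endothelial-like cells, at 57.2 CPM (31 UMIs) in EAE TRAIL- and 90.3 CPM (99 UMIs) in naive TRAIL-. Cd47 was lower in microglia-like than in endothelial-like cells, with a ratio of 0.616 (0.490 to 0.773) in EAE TRAIL- and 0.543 (0.436 to 0.670) in naive TRAIL-. For Cd274 that ratio was 2.80 (1.55 to 5.29) in EAE TRAIL- and 0.649 (0.321 to 1.23) in naive TRAIL-, where the interval included 1. For Sirpa it was 253 (86.3 to 1230; 3 UMIs in endothelial-like cells) in EAE TRAIL- and 75.0 (52.5 to 111) in naive TRAIL-. In the endothelial-like barcodes of naive TRAIL+ Sirpa was 251 CPM (15 UMIs), or 11.9% of the microglia-like level there. The microglia markers Tmem119, P2ry12, Siglech, Fcrls and Sall1 were at between 4.63% and 8.66% of their microglia-like level in the same barcodes (1 to 7 UMIs each). Their part in the Sirpa, Cd86 and Lag3 levels there was not tested.

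Sirpa was also counted in astrocyte-like cells, at 933 CPM (191 UMIs) in naive TRAIL+ and 400.3 CPM (32 UMIs) in naive TRAIL-. Those values were 44.2% and 18.9% of the microglia-like level, where Vsir stood at 17.5% and 1.77%. In naive TRAIL+ astrocyte-like cells Cd86 was 58.6 CPM (12 UMIs), Havcr2 29.3 CPM (6 UMIs) and Lag3 24.4 CPM (5 UMIs), or 41.5%, 11.97% and 14.1% of the microglia-like level, and in naive TRAIL- all 3 were at 0 UMIs. The microglia markers Tmem119, P2ry12, Siglech, Fcrls and Sall1 were at between 14.0% and 28.4% of their microglia-like level in the same naive TRAIL+ barcodes, and their part in these levels was not tested.

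Relatives and partners of the 7 genes were read from 7 lists. These lists were drawn up with earlier results of the data known, and their counts for EAE over naive microglia-like cells stand against 3.8% higher and 0.84% lower of all measured genes in TRAIL+ and 13.4% higher and 12.1% lower in TRAIL- cells. Of 13 B7 and CD28 family genes, 6 were measured in TRAIL+ and 5 in TRAIL- microglia-like cells, and those at least 2-fold higher in EAE were Cd274 in TRAIL+ and Cd274 and Icosl in TRAIL- cells, with a list median log2 ratio of -0.01 and 0.66. Icosl, the ligand of ICOS, was 1.32 (1.03 to 1.70) in TRAIL+ and 2.04 (0.967 to 4.59) in TRAIL- cells. Of 14 TNF superfamily costimulators 2 were measured and 0 reached 2-fold. Cd40, which receives help from T cells, was 1.83 (1.22 to 2.79) in TRAIL+ and 1.43 (0.612 to 3.54) in TRAIL- cells. Of 8 nectin and TIGIT family genes 2 were measured and 0 reached 2-fold.

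Among 16 partners of TIM-3, LAG-3 and VISTA, the MHC class II genes that encode the ligand of LAG-3 stood out by size. H2-Aa was 17.1 times higher in EAE (14.95 to 19.7; 3895 UMIs against 217) in TRAIL+ cells, and in TRAIL- cells it had 1099 UMIs in EAE against 2 in naive, a ratio of 493 (136 to 4072). H2-Ab1 was 14.2 (10.3 to 19.97) in TRAIL+ cells. The partner genes at least 2-fold higher numbered 3 of 9 measured in TRAIL+ (3.8% of all genes) and 4 of 10 in TRAIL- cells (13.4% of all genes), with 0 lower. Lgals9, which encodes the TIM-3 partner galectin-9, was 1.55 (1.43 to 1.69) in TRAIL+ and 1.68 (1.34 to 2.11) in TRAIL- cells. Selplg, a binding partner of VISTA, was 0.865 (0.834 to 0.897) in TRAIL+ and 0.777 (0.705 to 0.857) in TRAIL- cells.

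Of 13 genes of the CD47 and SIRPα system and other brakes on phagocytosis, 2 of 11 measured were at least 2-fold higher in TRAIL+ (Thbs1 and Pirb), beside 3.8% of all genes, with 0 lower. In TRAIL- cells 2 of 12 were higher (B2m and Pirb), a share near the 13.4% of all genes, with 0 lower. B2m, the MHC class I light chain, was 1.53 (1.498 to 1.57) in TRAIL+ and 2.20 (2.08 to 2.32) in TRAIL- cells. Thbs1, a secreted ligand of CD47, was 2.18 (1.63 to 2.94) in TRAIL+ and 0.773 (0.434 to 1.37) in TRAIL- cells. Ptpn6, which encodes SHP-1, was 1.33 (1.16 to 1.53) in TRAIL+ and 1.38 (0.955 to 2.01) in TRAIL- cells. Of 14 inhibitory myeloid receptors, 3 of 10 measured were higher in TRAIL+ cells (Cd300lf, Cd72 and Cd22), beside 3.8% of all genes, and 0 were lower. In TRAIL- cells 4 of 10 were higher (those and Pilra), beside 13.4% of all genes, and 2 were lower (Cd200r1 and Siglece), beside 12.1%. Cd300lf was 5.70 (3.97 to 8.41) in TRAIL+ and 3.14 (1.62 to 6.55) in TRAIL- cells, so receptors with an inhibitory tail did not all go the way of Sirpa.

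Of 24 genes of the interferon gamma response, all measured, 18 were at least 2-fold higher and 0 lower in EAE TRAIL+ microglia-like cells, and 19 were higher and 1 lower (Socs1) in EAE TRAIL- ones, beside 3.8% and 13.4% of all genes higher. The list median log2 ratio was 1.98 in TRAIL+ and 2.74 in TRAIL- cells, beside medians over all genes of 0.03 and -0.01. Cxcl9, a chemokine gene induced by interferon gamma, had 173 UMIs in EAE TRAIL+ against 2 in naive TRAIL+, a ratio of 82.6 (22.5 to 688). It had 40 UMIs in EAE TRAIL- against 0 in naive TRAIL-, at least 12-fold higher with a floor of 3 UMIs per library. In the microglia-like clusters other than the C4b-led one, 19 of the list's genes were measured in TRAIL+ cells, with 10 at least 2-fold higher, beside 3.74% of all genes, 0 lower, beside 0.887% of all genes, and a median of 1.17.

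**Figure D5:**
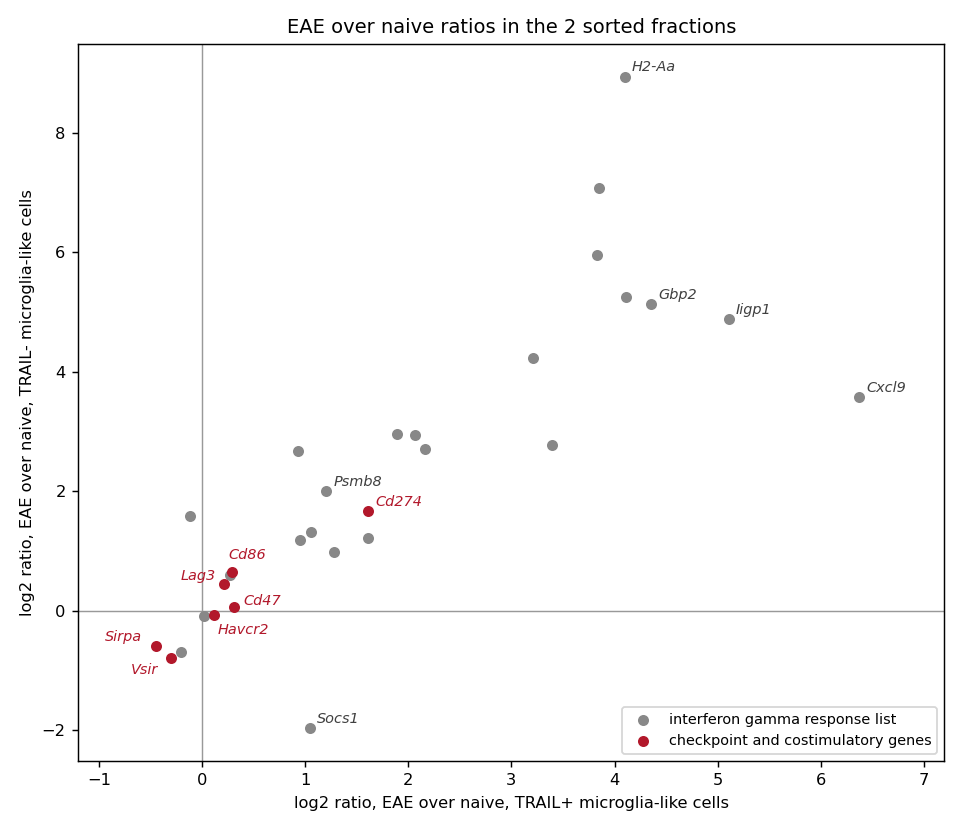
Log2 ratio of EAE over naive in TRAIL+ microglia-like cells (x axis) and in TRAIL- ones (y axis), with 1 point per gene, grey for genes of the interferon gamma response list and red for the 7 checkpoint and costimulatory genes. Cd274, at a ratio of 3.05 in TRAIL+ and 3.17 in TRAIL- cells, lay farther from 0 on both axes than the other members, and the points of Cxcl9 and H2-Ab1, which had 0 UMIs in naive TRAIL- cells, stand at lower bounds on the y axis.

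Between monocyte- or macrophage-like and microglia-like cells of EAE the relatives split by gene. Cd80 was 2.40 (1.42 to 3.90) in TRAIL+ and 2.83 (1.44 to 5.97) in TRAIL- cells, and Cd40 was 2.98 (1.84 to 4.69) and 5.71 (3.35 to 10.4). Pdcd1lg2, which encodes PD-L2, had 5 UMIs in TRAIL+ monocyte- or macrophage-like cells against 2 in microglia-like cells, a ratio of 20.2 (3.3 to 212), but its mean there was under the minimum of 10 CPM, so it is not among the genes counted as measured. In the TRAIL- library it had 22 UMIs against 0, at least 6.91-fold higher. Icosl was lower, at 0.465 (0.209 to 0.906) in TRAIL+ and 0.226 (0.0759 to 0.565) in TRAIL- cells. Of the B7 and CD28 list 1 of 5 measured genes was at least 2-fold higher and 2 lower in EAE TRAIL+, beside 13.8% and 18.8% of all genes. In EAE TRAIL- 3 of 6 were higher and 2 lower, beside 16.5% and 23.3% of all genes. Thbs1 was 60.3 (50.9 to 71.8) in TRAIL+ and 82.3 (55.6 to 127) in TRAIL- cells, and it is among the genes that led the monocyte-like cluster, as was Lgals3.

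The genes whose pattern was most like each member were sought by Pearson correlation of log2 levels over 20 groups, each a cell type in a library, among 4030 genes. Groups of a cell type share its cell identity and groups of a library share its depth, so the coefficients are a description. Lag3 was closest to Crybb1 (0.95), Tmem119 (0.94) and Tagap (0.93), and Tmem119 is a microglia marker. Vsir was closest to Dusp2, Tnfaip3 and Abi3 (0.97 each), and Sirpa to Lair1, Csf1r and Trem2 (0.96 each), of which Csf1r encodes the growth factor receptor of macrophages. Cd86 was closest to Slc11a1, Myo1f and Cd300c2 (0.98 each) and Havcr2 to Gpr84, Irf8 and Fmnl1 (0.93 each). Cd274 was closest to Psmb8 (0.87), an interferon-induced proteasome subunit, Fem1c (0.86) and Stat2 (0.84). Cd47, the broadly expressed ligand, had the weakest likenesses, at 0.72 for Atxn2l, 0.71 for Por and 0.71 for Gnaq.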

How the data were processed

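Single-cell RNA from 4 sorted mouse libraries was measured by inDrop. The authors deposited UMI counts per barcode and gene (whole numbers, not normalized, barcodes from 100 UMIs); per the submitters' processing notes Bowtie and GRCm38 were used (version and annotation not stated there). Barcodes with at least 500 UMIs and at most 20% mitochondrial UMIs were kept, and doublets called by Scrublet in scanpy 1.11.5 were removed (4 in EAE TRAIL+, 28 in EAE TRAIL-, 4 in naive TRAIL+ and 41 in naive TRAIL-). Leiden clustering (2000 variable genes, 30 components, 15 neighbours, resolution 1, and 2 for the finer clusters) left out the 7 members, and clusters were named from marker lists. Clusters without a name were scored again in a later round, without the named clusters of their likeliest type in the comparison. Microglia-like barcodes also needed 1% of UMIs from microglia markers, which left out 14, 32, 6 and 5 barcodes in EAE TRAIL+, EAE TRAIL-, naive TRAIL+ and naive TRAIL-. Because cell names were rebuilt here, numbers of cells may differ from the study's.

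UMIs were summed per cell type and library and divided by the total (CPM), with exact Poisson intervals for levels and exact conditional intervals for ratios. The intervals take each UMI as a separate count, so they are too narrow where UMIs of a gene gather in the same barcodes. A gene needed a mean of 10 CPM, and 2-fold set the calls. With 1 library per group no test was run. A count of 0 was set to a floor of 3 UMIs for bounds. The fold calculation was checked on simulated counts. Of the gene columns, 41343 of 41862 (98.8%) matched GENCODE M21 symbols.

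The members and the gene lists were chosen with earlier results of these data known. The genes named are the 7 members, genes of the lists and the 3 genes most like each member. Alternatives changed the filters, clustering, scaling (TMM in edgeR 4.0.16 and median-of-ratios), depth and thresholds.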

Additional observations from a re-analysis of the deposited data

Results flagged for a closer look

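The sign of the Sirpa ratio between TRAIL+ and TRAIL- microglia-like cells was not the same in the 2 states, although the naive value was next to 0. The log2 ratio of TRAIL+ over TRAIL- was 0.14 in EAE (1.10-fold, 1.02 to 1.19) and -0.0057 in naive cells (0.996-fold, 0.933 to 1.06). The naive interval included 1, so a fall is not shown, and under TMM and median-of-ratios scaling the naive value was 0.22 and 0.23, with the sign of the EAE value. With 1 library per group the difference between the states was not tested.

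The sign of the Cd47 ratio between EAE TRAIL+ and EAE TRAIL- was not the same in 2 cell types. The log2 ratio of TRAIL+ over TRAIL- was -0.76 in monocyte-like cells (0.592-fold, 0.476 to 0.732) and 0.0736 in microglia-like cells (1.05-fold, 0.872 to 1.28). The interval in microglia-like cells included 1 and the value ran from -0.095 to 0.27 under the alternatives, so an opposite direction is not shown. This difference between cell types was not tested either.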

How the results depend on the processing

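Of 420 log2 ratios of the 7 genes under 10 alternatives, 384 stayed within the counting interval of the main value and 36 moved beyond it. None of the ratios at 2-fold or more turned round. Of 156 counts of members past the threshold, 148 equalled the reported count, 3 were within 1.5 times of it and 5 moved further. The 3 were in monocyte- or macrophage-like over microglia-like cells: the 1.5-fold threshold added Cd86 to the higher genes in EAE TRAIL- and Sirpa to the lower ones in EAE TRAIL+, and thinning added Havcr2 to the lower ones in EAE TRAIL-. In EAE over naive TRAIL- cells, thinning to 500 UMIs left 0 members at least 2-fold higher, and a threshold of 1.5-fold gave 2 higher (Cd274 and Cd86) and 2 lower (Vsir and Sirpa). The 1.5-fold threshold also gave 1 member higher (Lag3) in TRAIL+ over TRAIL- naive cells and 1 higher (Cd47) in monocyte- or macrophage-like over microglia-like cells of EAE TRAIL+. The EAE ratio of Cd274 ran from 2.60 to 3.27 in TRAIL+ and from 1.62 to 3.75 in TRAIL- cells. Assigning each barcode alone by its marker share moved Lag3 to a log2 ratio of -5.74 and Vsir to -2.50 in monocyte- or macrophage-like over microglia-like cells of EAE TRAIL+. The cause of these moves was not tested, except that thinning leaves fewer UMIs. No paired analysis was possible because each group is 1 library. The 13 Cd274 UMIs in naive TRAIL- microglia-like cells set the wide interval there.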

Other observations

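In oligodendrocyte-like cells, which lie outside the myeloid cells described, Cd274 had 10 UMIs in 6 of 35 barcodes of EAE TRAIL- (129 CPM, 61.7 to 237) against 0 UMIs in 75 barcodes of naive TRAIL- (0 to 29.5 CPM), at least 5.37-fold higher. Cd47 was 180 CPM (14 UMIs) in EAE TRAIL- against 567 CPM (71 UMIs) in naive TRAIL- in the same cells, a ratio of 0.317 (0.165 to 0.568). In pericyte-like cells Cd274 had 10 UMIs in 8 of 455 barcodes of EAE TRAIL- against 0 in 500 barcodes of naive TRAIL-, at least 2.98-fold higher. Endothelial-like cells showed no such difference beyond counting error, with a Cd274 ratio of 0.736 (0.388 to 1.33).

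Per microglia-like barcode that held the gene, Havcr2 had more UMIs than Lag3 in each library. Microglia-like barcodes with at least 1 Havcr2 UMI held 2.37 on average in EAE TRAIL+, 2.55 in EAE TRAIL-, 1.75 in naive TRAIL+ and 2.39 in naive TRAIL-, and the fullest barcode held 14 in EAE TRAIL+. For Lag3 the averages were 1.39, 1.39, 1.33 and 1.19 in the same order of libraries. The Lag3 level was lower in each library (102.2 to 200.1 CPM, beside 224.5 to 264.7 CPM for Havcr2), which by itself lowers such an average. In EAE TRAIL+ more barcodes held Lag3 than Havcr2, 29.0% beside 22.5%. The order was the same in EAE TRAIL-, but in both naive libraries more barcodes held Havcr2 than Lag3.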
